A study of Mus musculus with 2 samples.

Results

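Foxp4 sites at the Ror and Wnt5 genes were 5 of the 3317 Foxp4 peaks mapped in mouse fat precursor cells. They lay at 3 of the 4 genes, with 2 at Ror1, 2 at Ror2, 1 at Wnt5b and none at Wnt5a. A peak was taken as a member if its nearest gene in the authors' annotation was Ror1, Ror2, Wnt5a or Wnt5b, or if its midpoint lay within 100 kb of the gene body (mm10 positions). The genes were chosen by the scores and positions of their peaks in this list, so positions, scores and counts at these genes are a description and carry no test.

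The series holds 1 Foxp4 ChIP library, made by chromatin immunoprecipitation with a Foxp4 antibody and sequencing of the recovered DNA, and 1 library of input DNA. Both came from the stromal vascular fraction (SVF) of inguinal white fat of C57BL/6 mice, the mixed non-adipocyte cells that include adipocyte progenitors. The cells were grown for 3 days in 20% serum and then differentiated for 2 days towards beige adipocytes. Per the labels, the induction medium held 10% serum, the thyroid hormone T3 at 50 nM, the PPARγ agonist troglitazone at 5 µM, insulin at 5 µg/ml, the glucocorticoid dexamethasone at 1 µM and the phosphodiesterase inhibitor isobutylmethylxanthine at 0.5 mM. No genotype other than the strain was labelled, and no Foxp4-deficient cells are among the samples used here. The input library was not analysed here. With a single ChIP library, no value has a replicate error, no groups were compared, and read depth is unknown. The labelled cell type cannot be checked against marker expression in a peak list.

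Wnt5a and Wnt5b are secreted ligands of the non-canonical Wnt branch, which works without stabilising beta-catenin. Ror1 and Ror2 are receptor tyrosine kinase-like proteins that bind Wnt5a through a cysteine-rich domain and act with Frizzled receptors and Dishevelled on planar cell polarity, JNK signalling and, in some cells, calcium signalling. In fat, Wnt5a is known as a secreted factor that restrains adipogenesis and is counteracted by the decoy Sfrp5. Foxp4 is a forkhead transcription factor.

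Strength is given by the authors' peak score, a whole number carried over from the peak caller's file, which ranged from 13 to 2569 over all peaks with a median of 65 (quartiles 41 to 104). It ranks peaks within this list and is no measure of occupancy. In the member peaks it ranged from 31 to 2569. The 5 scores were 2569 in Ror2 intron 1, 139 in Wnt5b intron 1, 62 in Ror1 intron 1, 41 in Ror1 intron 4 and 31 upstream of Ror2. The highest was 18.5 times the second and 82.9 times the lowest. Thus 2 of the 5 stood at or above the median of all peaks, and the other 3 below it.

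**Figure D1:**
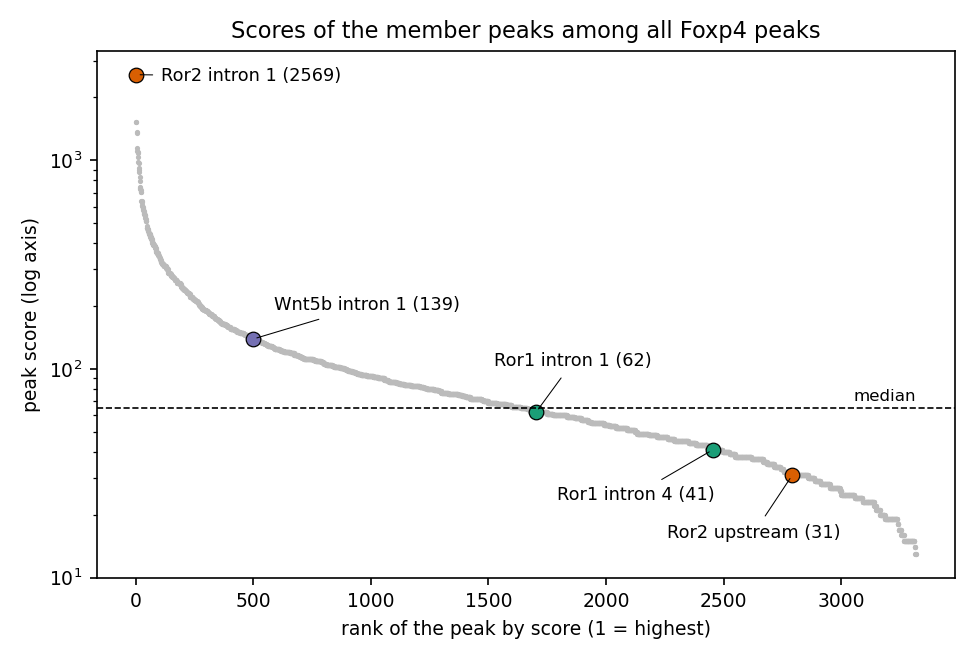
Score of every peak (log axis) against its rank by score, where 1 is the highest. Grey points are all 3317 peaks, coloured points the 5 member peaks with their scores, and the dashed line the median of 65. The Ror2 intron 1 peak stands above all others, and 3 of the 5 member peaks lie under the line.

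The Wnt5b site is the member peak at a start site, and the sequences shown here are the DNA before 2 of the start sites of that gene, to show which kind of start the peak adjoins. RefSeq (GRCm38.p6) lists 3 promoter windows for Wnt5b, each reaching from 250 bases before to 50 bases after a start. The peak lay on chr6:119448890-119449301 (mm10), from 85 to 496 bp downstream of the start nearest to the 3′ end of the gene. The other starts lay 18.1 kb and 95.3 kb upstream of its midpoint. The 250 bases before the start beside the peak (chr6:119449387-119449636, minus strand) and those before the start farthest from it (chr6:119544348-119544597, minus strand) read as follows, 5′ to 3′, with each CG dinucleotide in capitals.
Wnt5b start beside the peak: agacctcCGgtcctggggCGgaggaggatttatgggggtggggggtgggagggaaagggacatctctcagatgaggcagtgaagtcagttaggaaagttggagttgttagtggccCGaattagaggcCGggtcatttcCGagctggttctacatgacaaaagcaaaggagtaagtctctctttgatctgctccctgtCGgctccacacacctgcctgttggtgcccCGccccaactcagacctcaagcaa
Wnt5b start farthest from the peak: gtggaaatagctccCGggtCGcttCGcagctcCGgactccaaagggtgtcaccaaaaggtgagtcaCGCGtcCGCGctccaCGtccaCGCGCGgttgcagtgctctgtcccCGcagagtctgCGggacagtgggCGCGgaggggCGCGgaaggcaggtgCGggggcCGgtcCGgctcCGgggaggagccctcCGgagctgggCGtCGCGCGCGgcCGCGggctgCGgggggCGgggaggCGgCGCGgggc

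The start beside the peak had 7 CG dinucleotides in these 250 bases, whereas the farthest start had 35. Over the full 300 bases, the window beside the peak held 7 CG dinucleotides, equal to the median of 7 over all 32851 RefSeq promoter windows (quartiles 3 to 20). The farthest window held 47, more than in 98.6% of all windows, and the middle window 4. The peak therefore adjoined a start of ordinary CG content, not the CG-dense one. The windows contain none of the peak itself, whose edge lay 36 bp from the nearest of them.

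Letters known as forkhead recognition cores were searched in the RefSeq windows of the member genes on both strands. The motif TGTTTAC occurred in 3.65% of all 32851 windows. A second motif, ending in G instead of AC (TGTTTG), occurred in 18.2%. The core that both share and that each of their matches includes, TGTTT, occurred in 50.5%. None of the 5 windows of Ror1 (1), Ror2 (1) and Wnt5b (3) held any of these motifs. The absence says only that these letters are not in these windows. All 5 windows lay outside the member peaks.

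Of the receptor genes, Ror2 had the highest-scoring site of the whole list. The peak lay on chr13:53275734-53276533 in intron 1 of 8 of Ror2, which is transcribed on the minus strand, 9.98 kb downstream of the start site in the authors' annotation and 9.99 kb in RefSeq. Its score of 2569 was 39.5 times the median of all peaks and 1.69 times the next score, 1519, which was shared by peaks at Col3a1 and Ptger2. Its width of 800 bp ranked 112th, so it was not among the very widest. Of the 113 peaks at least as wide, the median score was 110 and 6 reached 1000. Among the 471 peaks in an intron 1 the next score was 972, at Plekhf1, and the median was 66. On chromosome 13, which carried 203 peaks, the next was 1098, nearest to Bloc1s5.

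The midpoint of the Ror2 peak was annotated to a (CAA)n simple repeat. (TTG)n is the same repeat read on the other strand, and together the 2 annotations covered 83 peaks with scores of 25 to 2569 and a median of 119. Within these 83 peaks the Ror2 peak was both the highest and the widest. The next score was 1370, at 1700116B05Rik, and 6 of the 83 reached 500. Both peaks of score 1519, next to Ror2 in the whole list, were on other simple repeats, (TTTTTG)n and (TTTG)n. Simple repeats of any kind were annotated to 285 of the 3317 peaks, with a median score of 94. They held 11 of the 45 peaks that reached 500. Of the 83, 16 lay in an intron 1, with a median of 143.5 and a next score of 288, at Nmi. The Ror2 peak was 8.92 times that score, against 1.88 times the next score among all 83. These classes were drawn after the Ror2 peak had been seen, and the ratio grew with the narrowing, so it is a description only. The labels and headers do not say how reads with more than 1 alignment were handled, and the part of the repeat in the score was not tested. Without peaks on simple repeats, a choice made after the data were seen, the highest member score was 139, at Wnt5b.

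**Figure D2:**
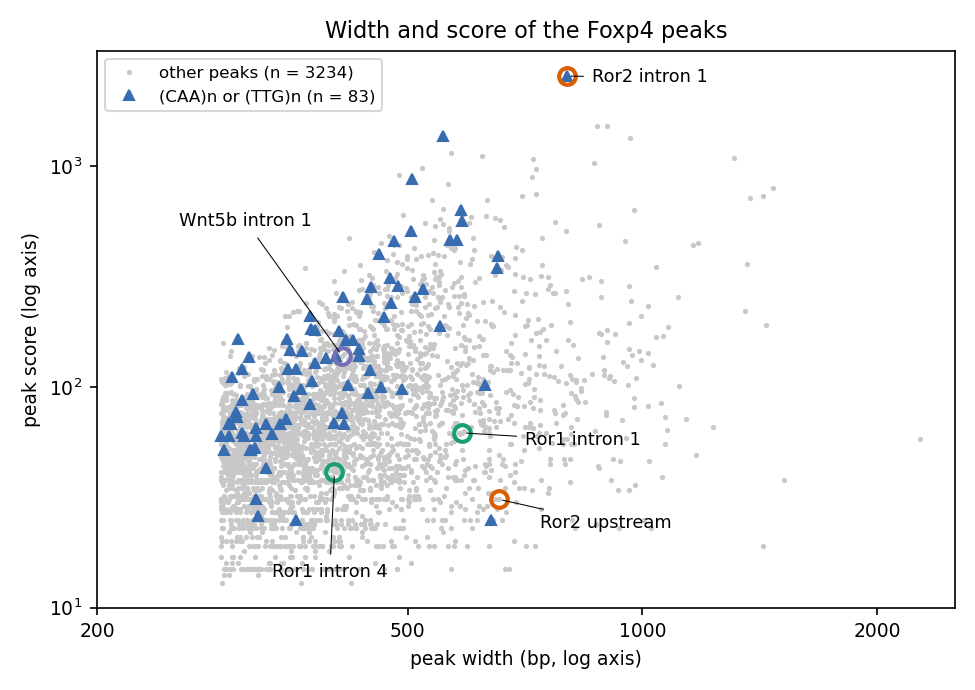
Peak score against peak width in bp, both on log axes. Grey points are 3234 other peaks, triangles the 83 peaks annotated to (CAA)n or (TTG)n, and open circles the 5 member peaks. The Ror2 intron 1 peak is the highest point of the plot, whereas the peak upstream of Ror2, at 654 bp the second widest of the members, has their lowest score.

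The second Ror2 site was weak. It lay on chr13:53324022-53324675, 38.2 kb before the Ror2 start site, and had a score of 31. Of all peaks, 15.9% scored 31 or less. The file annotates it as intergenic, with the midpoint in an L1MDa element of the L1 family of retrotransposons. Over the 123 peaks on L1 elements the median score was 63, and the 3 on L1MDa had scores of 31 to 94. Other annotation places the peak beside other genes. It was 8.4 kb from the body of Sptlc1, which encodes a subunit of serine palmitoyltransferase, the enzyme that starts sphingolipid synthesis, but 53.0 kb from its start site, and at -14.6 kb from the start site of the non-coding Gm33631. Among the 283 intergenic peaks 20 to 50 kb before a start site the median score was 62, and 55 had a score of 31 or less. The 2 Ror2 peaks were 48.2 kb apart. Over all peaks the median distance to the closest other peak was 111.4 kb (quartiles 32.2 to 330.4).

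Ror1 had 2 sites of middling to low score, both deep inside the gene. Its body spans 349 kb on chromosome 4 (100095791 to 100444806), against 176.8 kb for Ror2 (chromosome 13, 53109317 to 53286124). The peak in intron 1 of 8 (chr4:100241012-100241599) lay 145.5 kb downstream of the start site, at 41.7% of the length of the body, and had a score of 62 and a width of 588 bp. The peak in intron 4 of 8 (chr4:100368803-100369205) lay 273.2 kb downstream, at 78.3% of the length, and had a score of 41 and a width of 403 bp. In contrast, the Ror2 intron 1 peak lay at 5.65% of the length of its gene. Neither Ror1 peak was annotated to a repeat.

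The intron 4 peak is in the set by its position alone. The file names Ube2u, which encodes a predicted ubiquitin-conjugating enzyme, as its nearest gene because the peak, at -109.9 kb from the Ube2u start site, is closer to it than to that of Ror1. An assignment by nearest start site therefore misses it. By the starts of the RefSeq promoter windows, the named gene was also the closest one for 3 of the 5 member peaks. The exceptions were the Ror1 intron 1 peak, which had the non-coding Gm12701 start inside the Ror1 gene at 121.7 kb, and the peak upstream of Ror2. Some genes, such as Wnt5a, have no such window, so closer starts may be missed. The body of the non-coding Gm35760, for example, lay 10.1 kb from the intron 4 peak. Among the 194 intron peaks more than 100 kb from a start site, the median score was 59 and 92 scored at least 62. The Ror1 intron 1 peak thus stood near the middle of peaks in a like position.

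The gap between the receptors was wide, with 2569 as the highest score of Ror2 and 62 as that of Ror1. Each receptor gene had 2 member peaks, and in each the stronger one lay in intron 1. Under the member rule the number of sites was therefore equal. By nearest gene alone it was 1 at Ror1 and 2 at Ror2, and inside the gene body 2 and 1. The highest score differed, but the scores did not separate the genes, since the weaker Ror2 peak (31) was below both Ror1 peaks (62 and 41). Both Ror2 peaks lay closer to the start site of their gene than either Ror1 peak. With 1 library none of these differences could be tested.

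**Figure D3:**
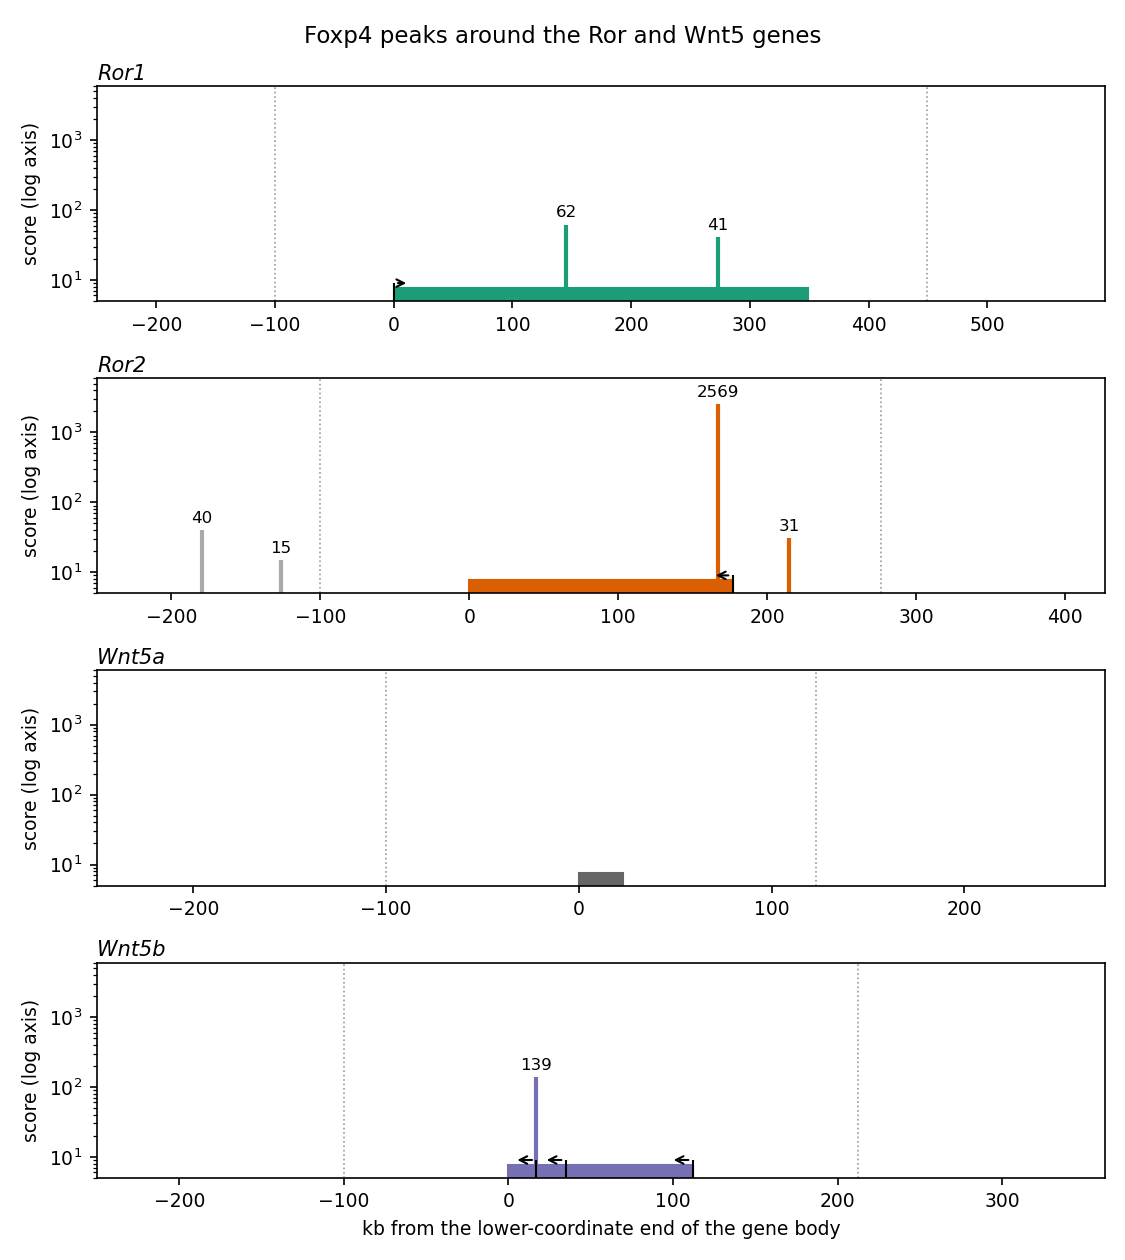
Foxp4 peaks by score (log axis) around each gene, against the distance in kb from the lower-coordinate end of the gene body. Thick bars are gene bodies, arrows RefSeq start sites and their direction (none drawn for Wnt5a), dotted lines the 100 kb limits and grey lines peaks outside them. Ror2 has its peak of 2569 near the start site, Ror1 has peaks of 62 and 41 inside the gene, Wnt5b one of 139 beside an internal start, and Wnt5a none.

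Of the ligand genes, Wnt5b had a peak and Wnt5a had none. The Wnt5b peak had a score of 139, which ranked 498th and was 2.14 times the median of all peaks, and a width of 412 bp. The file annotates it to intron 1 of 4 and gives 291 bp as its distance to the start site, the same as to the RefSeq start beside it. No repeat was annotated at its midpoint. It was the 1 member peak within 3 kb of a start site. Of the 64 peaks 100 to 500 bp downstream of a start site, 8 had a score of 139 or more, the Wnt5b peak included, and the median was 44.5. Of the 547 peaks within 3 kb of a start site in either direction, 107 did, with a median of 62. These position classes were drawn after the member peaks had been seen.

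Other coding genes lie close to the Wnt5b site. Fbxl14, an F-box protein gene inside the Wnt5b body as RefSeq delimits it, was 30.6 kb from the peak. Adipor2, which encodes a receptor for the fat hormone adiponectin, had its gene body 31.4 kb and its start site 60.4 kb away. The closest other peak was 464.7 kb away, beyond the upper quartile of 330.4 kb of this distance over all peaks, and on the other side the next was 628.9 kb away.

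Wnt5a was without a site under every rule tried. No peak named it as nearest gene, and none lay within 200 kb of its body (chromosome 14, 28504543 to 28527448). The closest lay 554.8 kb away (chr14:29082035-29082361, score 25), within an intron of another gene and nearest to Lrtm1. A second peak there was 558.2 kb away and had a score of 69. A distance of this size is common, since 31.2% of the 21883 protein-coding genes had their closest peak farther off and the median was 277 kb (quartiles 86.7 to 723). At unknown read depth, the list shows that no peak was called near Wnt5a, not that Foxp4 is absent there.

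The limit of 100 kb did not fall between close values. The member peak farthest from its gene body was the one 38.2 kb upstream of Ror2. The nearest peaks outside were 126.7 kb from the Ror2 body, at -1.57 kb from the start site of the circadian repressor gene Nfil3 (score 15), and 179.7 kb from it, at the promoter of Auh, an enzyme gene of leucine breakdown (score 40).

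Many genes have a peak under the member rule. Under it 3 of the 4 members had one, against 28.2% of all protein-coding genes, those named nearest to a peak or with one within 100 kb of the body. By nearest gene alone 3 of 4 had one, against 9.11%. A peak inside the body was present in 3 of 4, against 5.36%. The genes were Ror1, Ror2 and Wnt5b each time. Gene length bears on the last of these. Ror1, Ror2 and Wnt5b have bodies of 112.3 to 349 kb, and of the 2077 coding genes with bodies of 100 to 400 kb 21.2% held a peak and 5.25% held at least 2, as Ror1 did. Within 3 kb of the start site 1 of 4, Wnt5b, had a peak, against 2.08% of coding genes. As the 4 genes were chosen with the list known, nothing is read from these counts.

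Other genes of the branch were taken from a list of 76 ligands, receptors, extracellular partners and intracellular effectors, in which the 4 members are included. Of the 76, 19 (25%) were named nearest to a peak, and without the 4 members 16 of 72 (22.2%), beside 9.11% of all coding genes. Within 100 kb of the body 30 of the 76 (39.5%) had a peak, and without the members 27 of 72 (37.5%), nearer to the 27.6% of all coding genes. The listed genes are longer than most. The median body was 47.5 kb in the list and 17.2 kb over all coding genes, and 31.6% against 11.1% had a body of at least 100 kb, so the 2 shares are not alike in what they count. Within 3 kb of the start site lay a peak of 3 of the 76 (3.95%, beside 2.08%), namely Wnt5b, Cthrc1 and Nfatc4. The 22 peaks named for the 16 other genes had scores of 18 to 463 and a median of 62.5, close to the median of 65 of all peaks. Of these 22, 4 were on simple repeats, beside 285 of all 3317 peaks.

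Among the other ligands, none of Wnt4, Wnt11 and Wnt9b was the nearest gene of a peak, beside 9.11% of all coding genes. Within 100 kb 1 of 3 had one, beside 27.6%. It was Wnt4, with the closest peak 94.5 kb from its body.

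Among the other receptors and co-receptors, 4 of 15 were named nearest to a peak (9.11% of all coding genes), 1 of 15 had a peak inside its body (5.36%) and 8 of 15 had one within 100 kb (27.6%). Gpc6, a glypican that carries heparan sulphate on the cell surface, had one of score 463 at -335.2 kb, on a (TTG)n repeat, and one of 18 inside the gene. Fzd8 had one of 222 at -578.2 kb, on a (TTTTTG)n repeat. Frizzled proteins are the membrane receptors that bind Wnt ligands together with Ror. Of the 10 Frizzled genes, 3 were the nearest gene of a peak, beside 9.11% of all coding genes. None had a peak inside its body, beside 5.36%, and 5 had one within 100 kb, beside 27.6%. The others named were Fzd6 (63 at -19.7 kb) and Fzd1 (39 at -68.3 kb, the higher of its 2). The further Wnt5a receptor gene Ryk, which encodes a kinase-like protein, was the nearest gene of none but had 3 peaks within 100 kb, the closest 71.2 kb from its body. Ptk7, a pseudokinase gene, had none within 100 kb, with the closest 227.8 kb away.

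Of the extracellular partners, 2 of 6 were named nearest to a peak, beside 9.11% of all coding genes, and 2 of 6 had one within 100 kb, beside 27.6%. Cthrc1, a secreted collagen-triple-helix protein known to help Wnt ligands engage Frizzled and Ror2, had a peak in intron 1 at 825 bp from the start site with a score of 35. Fzd6 is its neighbour on chromosome 15, and the peaks named for Cthrc1 and Fzd6 were 91.2 kb apart. Sfrp1, a secreted Wnt antagonist, had a peak of 255 at 100.4 kb. Its relative Sfrp5, the Wnt5a decoy of fat, was nearest to none, with the closest 181 kb away.

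Inside the cell, 3 of 13 planar cell polarity genes and 4 of 19 genes of the calcium branch had a peak by nearest gene, beside 9.11% of all coding genes. Within 100 kb 4 of 13 and 5 of 19 had one, beside 27.6%. Prickle2, a cytoplasmic polarity protein, had one of 75 in intron 2 on a (TG)n repeat and one of 62 at -39.3 kb on (CAA)n. Prickle1 (36) and the membrane protein gene Vangl1 (34) had lower ones. Daam1, a formin that binds Dishevelled, was named for peaks of 68 and 47 in its introns 4 and 1, and another peak inside the gene, in intron 24 (score 106), was named for Gpr135. Map3k7, the kinase TAK1, had peaks of 122 and 51. Ppp3ca, a catalytic subunit of calcineurin, had a peak of 120 in intron 1, Camk2d 1 of 76 at -94.8 kb, and Nfatc4, a transcription factor that calcineurin activates, 1 of 72 at -1.25 kb. Plcb4 had 1 of 25. No peak named for these intracellular genes reached the Wnt5b score of 139.

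**Figure D4:**
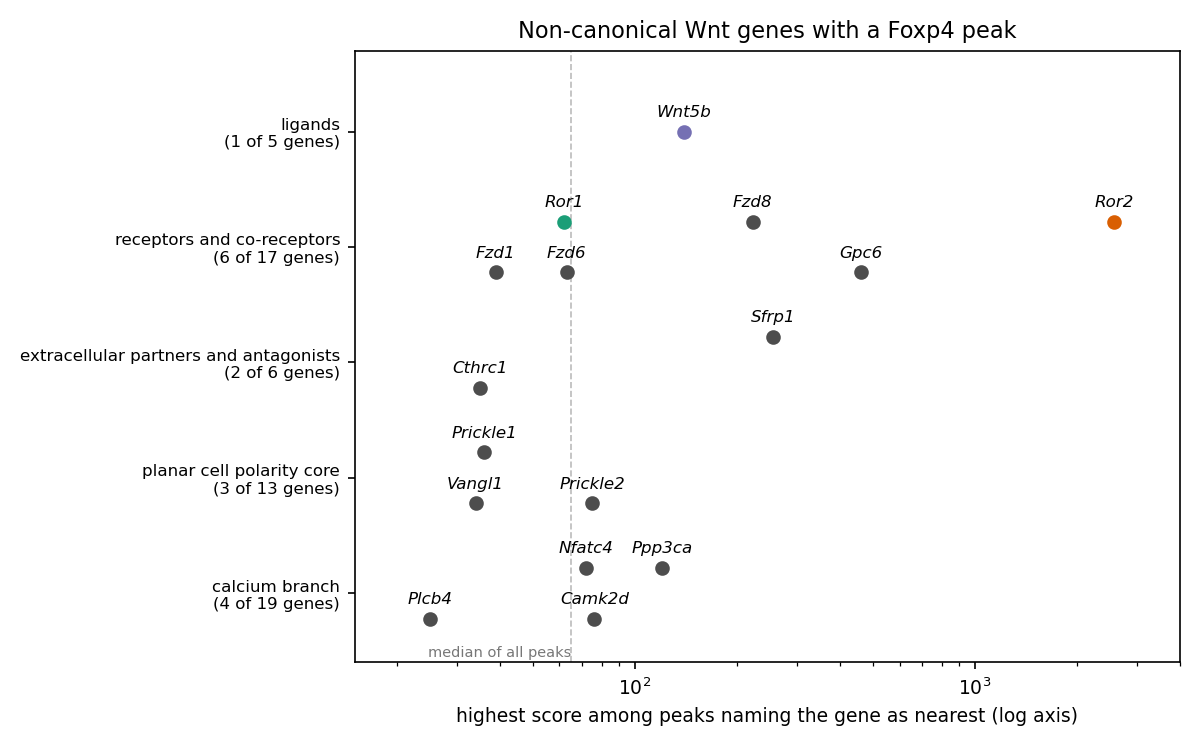
Highest score (log axis) among the peaks that name each gene as nearest, for the 16 of 60 non-canonical Wnt genes of 5 roles with such a peak. Each point is 1 gene and the dashed line is the median of all peaks (65). Ror2 stands apart at 2569, followed by Gpc6 at 463 and Sfrp1 at 255, while Ror1 lies at 62 near the median.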

How the data were processed

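Peaks of 1 ChIP library were analysed. Per the file headers, the authors' deposited list came from a narrowPeak file that HOMER's annotatePeaks.pl annotated on mm10. The submitters' processing notes name Bowtie2, Picard, SAMtools, MACS2 and deepTools 3.3.0, without roles or settings. The score is the authors' deposited value for each peak. Its definition and how input entered the calls are not given in the sources used here, and a score of this kind also depends on read depth. All 3317 peaks were kept and 1 line without a peak was left out.

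Nearest genes, distances, classes and repeats are those of the file. Gene bodies, start sites and promoter sequences came from RefSeq (GRCm38.p6, the assembly of mm10). Peaks were placed by their midpoints with Python 3.11.15, pandas 2.3.3 and numpy 2.4.6, and the placement was tested on simulated data. Background shares are over 21883 protein-coding genes. Of the 76 listed genes all were matched by symbol.

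The members and lists were chosen with earlier results of these data known. Named are the 4 genes, genes nearest to peaks in their windows, listed genes with a peak within 3 kb and up to 3 further ones for each role, and genes next in score. Fzd1 was added after its values were seen, as were Tiam1, listed genes without a peak and neighbouring genes. The counts of 1 role of the list are not reported here. No test was run. Alternatives changed the window, the assignment, the score limit and the overlap.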

Additional observations from a re-analysis of the deposited data

How the results depend on the processing

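The number of member peaks was 5, of genes with one 3 of 4, and the highest score 2569. With windows of 20, 50 or 200 kb, by nearest gene alone, inside gene bodies alone, at a score of at least 30 or with any base of the peak in the window, the number of peaks ranged from 4 to 7, and 3 genes and the score of 2569 were kept. With only peaks at or above the median score, 2 member peaks remained, at Ror2 and Wnt5b. Without peaks annotated to simple repeats, an alternative added after the data were seen, 4 peaks at 3 genes remained and the highest score was 139.

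Of the 76 listed genes, 19 were named nearest to a peak. Counting peaks within 100 kb of the body gave 30 (39.5%, beside 27.6% of all coding genes), and within 20 kb 13. Requiring the start site within 3 kb gave 3 (3.95%, beside 2.08%), and a score of at least the median gave 12. A score of at least 30 gave 18, and leaving out simple repeats 17. For the 20 kb window, the score limits and the repeat filter no share over all coding genes is given, so nothing is read from those counts. No paired analysis was possible because the results come from 1 ChIP library and no test. Read depth is unknown, so weak sites may be missing from the list. No replicate could be left out.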

Other observations

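The surroundings of Ror2 held more peaks than those of the other 3 genes. Within 1 Mb of the gene body there were 13 peaks at Ror2, 5 at Ror1, 3 at Wnt5a and 3 at Wnt5b, beside a median of 3 (quartiles 1 to 5) over all protein-coding genes. Of the 13, 9 lay beyond the end of Ror2 that is away from its start site, and 2 beyond the peak upstream of it. Peaks nearest to BB123696 had scores of 143, 55 and 51, and one nearest to Syk, a tyrosine kinase gene of immune cells, had 52. On the other side, 1 peak lay at -1.41 kb from the start site of the dopamine receptor gene Drd1 (score 35). The Ror2 intron 1 peak was 293.5 kb from its neighbour towards the 3′ end of the gene. These counts were made after the data were seen and were not tested. Tiam1, which encodes a Rac activator, had a peak of score 211 inside its body that the file names for Gm10789.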
